A study of Mus musculus with 42 samples.

Results

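Non-coding RNAs that work in the nucleus or as small structural RNAs, and 2 host genes of small nucleolar RNAs (snoRNAs), were followed through an immunoprecipitation of tagged Tnrc6a from mouse embryonic stem cells. The 9 genes listed, Malat1, Neat1, Gas5, Snhg1, Rmrp, Rpph1, Rn7sk, Terc and Bc1, were chosen by name and not by a measured value, and were matched by exact gene symbol. The choice was made with earlier results of these data known. Of the 9 genes, 7 were measured in both count tables, which hold 18825 and 19866 genes with 18620 in common. Rn7sk and Terc are not analysed here. The 7 comprise 2 nuclear long non-coding RNAs (Malat1, Neat1), 2 snoRNA host genes (Gas5, Snhg1) and 3 small RNAs (Rmrp, Rpph1, Bc1). In the assembly GRCm38.p6 of RefSeq, 3 of them lie on chromosome 19, namely Malat1 (5795690 to 5802672), Neat1 (5824708 to 5845480) and Snhg1 (8723487 to 8726326). Gas5 lies on chromosome 1 (161034601 to 161038539), Rmrp on chromosome 4 (43492785 to 43493059), Rpph1 on chromosome 14 (50807447 to 50807771) and Bc1 on chromosome 7 (144914470 to 144914623). RefSeq lists Rmrp as an RNase MRP RNA, Rpph1 as an RNase P RNA and the others as long non-coding RNAs.

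All libraries came from embryonic stem cells of the mouse strain 129S6/SvEvTac that carry the reporter GFP_5xT71BS and stably transfected FLAG-Cas9 with a blasticidin marker, so the untagged controls carry these too. Untagged cells were compared with cells whose Tnrc6a bears an HA-AVI tag, with tagged cells that are also Trim71-/- (Trim71KO), and, in experiment 2, with tagged cells that are also Ago2-/- (Ago2KO). Lysates made with a mild detergent and cleared by centrifugation were incubated with anti-HA beads, and RNA of the bead fraction (IP) and of the lysate (input) was sequenced with a stranded total RNA kit. There were 42 libraries in 14 groups of 3, from dishes grown in triplicate, so p-values measure the spread between dishes of a line. Whether a knockout line is 1 clone is not given in the sources used here.

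Tnrc6a is a GW182 protein, the partner through which Argonaute proteins with their microRNAs repress mRNAs in the cytoplasm, and Trim71 is a stem cell RNA-binding protein that represses mRNAs. Malat1 is retained in nuclear speckles, and Neat1 is the scaffold on which paraspeckles assemble. Gas5 and Snhg1 carry snoRNAs in their introns, and their spliced RNAs reach ribosomes and are destroyed by nonsense-mediated decay. Rmrp is the RNA of RNase MRP, which cuts precursor ribosomal RNA, and Rpph1 is that of RNase P, which trims tRNA precursors. Bc1 is a rodent RNA polymerase III transcript that descends from a tRNA and is known from neurons.

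The first 50 bases from the annotated start are shown with the start features that were searched in them. These features do not sort the classes, as the Gas5 start at 161034601 has a longest run of 3 bases, like Malat1. Such windows were found for 4 members, as RefSeq sequences of GRCm38.p6. In the long RNAs the capitals mark the longest run of C and T within the first 20 bases, and in Bc1 they mark the A box, an internal promoter element of polymerase III genes, searched on the transcribed strand alone. Gas5 has 2 annotated starts, and both are shown.
Malat1, chr19:5802623-5802672, minus strand: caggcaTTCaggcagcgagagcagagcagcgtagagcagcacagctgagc
Gas5, chr1:161035166-161035215, plus strand: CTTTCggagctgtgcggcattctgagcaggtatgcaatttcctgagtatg
Gas5, chr1:161034601-161034650, plus strand: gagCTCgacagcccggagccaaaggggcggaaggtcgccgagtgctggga
Snhg1, chr19:8723487-8723536, plus strand: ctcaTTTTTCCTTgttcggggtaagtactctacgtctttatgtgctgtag
Bc1, chr7:144914470-144914519, plus strand: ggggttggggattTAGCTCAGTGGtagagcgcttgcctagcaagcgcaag
The Gas5 window at 161035166 opens with a C followed by 4 pyrimidines, the form of a terminal oligopyrimidine start, which 2.51% of 32851 such windows share. Snhg1 holds an unbroken run of 9 pyrimidines, reached in 4.2% of windows, but 4 bases inside its annotated start. Malat1 has no run over 3 bases, a length that 76.8% of windows reach. The A box of Bc1 spans positions 14 to 24, counted from the start, and 0.107% of windows (35) hold one.

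Totals ran from 12587257 to 23657840 counts per library in experiment 1 and from 16296447 to 21026552 in experiment 2. Input Ago2 was 162 ± 4.76 CPM (counts scaled to the effective library size; SD, n = 3) in Ago2KO and 353 ± 34.9 CPM in tagged cells. Trim71 RNA was higher in the cells labelled Trim71KO (377 ± 9.61 CPM) than in tagged cells (282 ± 23.5 CPM) of experiment 2, so its level does not check that label. All 8 pluripotency markers were in the tables, with summed input group means of 6395 to 7731 CPM in experiment 1 and 7262 to 8671 CPM in experiment 2. Those of 7 primitive endoderm markers stayed between 8.72 and 66.8 CPM, with Foxa2 not in the table of experiment 2. Of 5 fibroblast markers, Col1a2, Col3a1 and Postn were in neither table, and the other 2 summed to 21.8 to 60.1 CPM. The 3 tagged input libraries of experiment 1 were below all other inputs of that experiment in Bc1, Lars2 and Mir6236, and tagged IP replicate 1 of experiment 2 was the highest library of its experiment in Rmrp, Rpph1, Lars2 and Mir6236. Their values stand beside the small RNAs.

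Per length, in the deposited RPKM (reads scaled to gene length and library size), Bc1 and Gas5 held the highest input levels and Rmrp and Neat1 the lowest. In tagged cells of experiment 2, Bc1 stood at 110 ± 19.2 RPKM and Gas5 at 92.6 ± 0.806 RPKM (SD, n = 3), a difference within the spread of Bc1. Snhg1 (27.1 ± 1.29 RPKM) and Malat1 (20.5 ± 0.770 RPKM) followed, separated by more than their spreads. Rpph1 (6.45 ± 2.79 RPKM) and Neat1 (4.50 ± 0.337 RPKM) were within their spreads of each other, and Rmrp was lowest at 1.14 ± 0.894 RPKM. In tagged cells of experiment 1 the order opened instead with Gas5 (84.2 ± 15.4 RPKM), Snhg1 (34.3 ± 5.79 RPKM) and Malat1 (13.6 ± 1.71 RPKM). Bc1 ranked below these at 13.0 ± 13.4 RPKM, where its SD exceeded its mean. Raw counts ran from 196 for Neat1 to 7680 for Gas5 in the 4 long RNAs, but from 0 to 37 for Rmrp and from 4 to 144 for Rpph1, so these small RNAs were scarce in the libraries and their precision is low. Bc1 ranged from 3 to 587 counts.

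**Figure D1:**
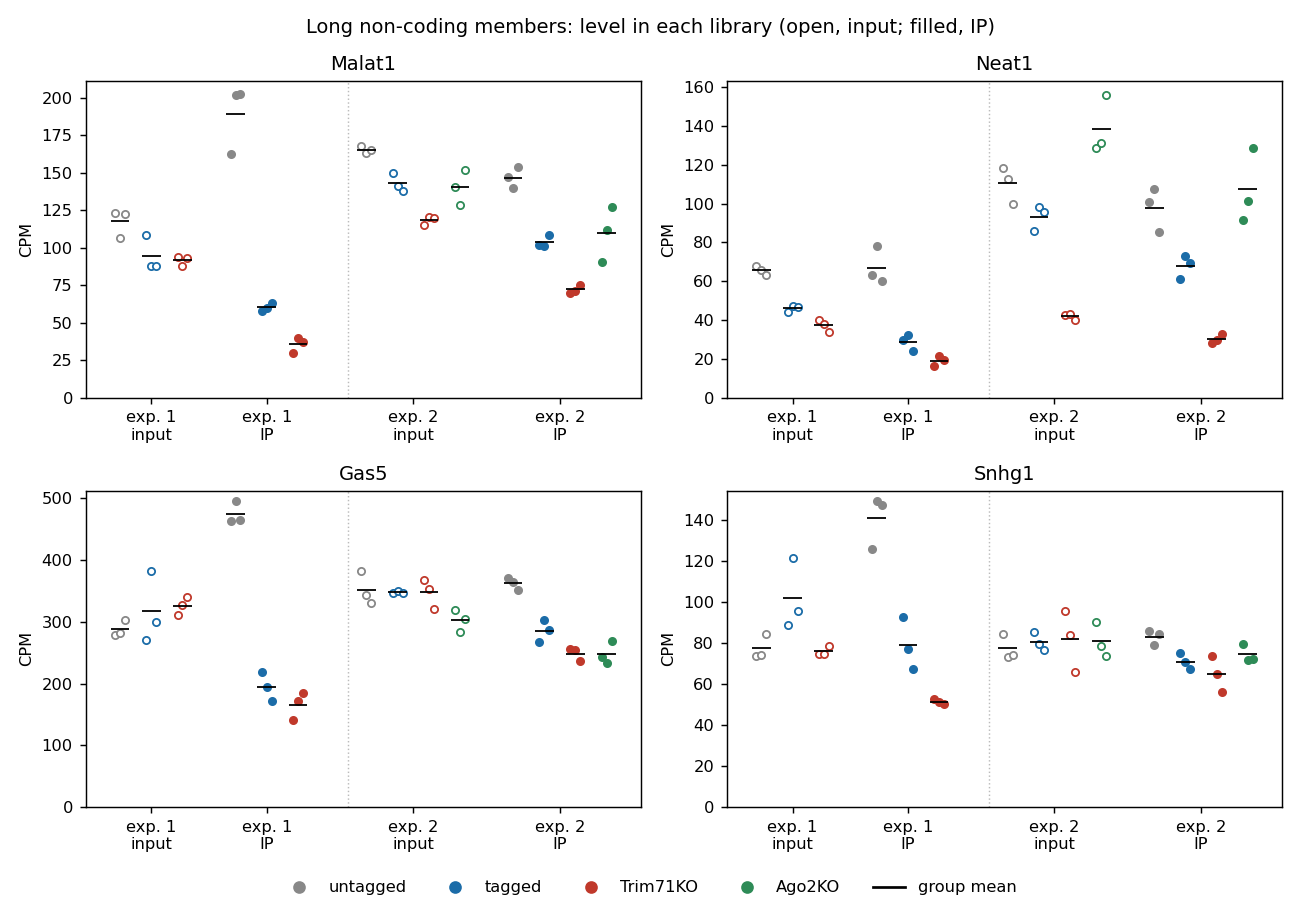
Level of Malat1, Neat1, Gas5 and Snhg1 in CPM (y axis, linear, from 0) in each library, by experiment and fraction (x axis), with open points for input, filled points for IP, colours for genotypes and bars for group means (n = 3). In both experiments every tagged IP library of each of these RNAs lies below every untagged IP library, for Malat1 58.0 to 63.3 against 163 to 203 CPM in experiment 1.

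Relative to the other RNAs of each library, Malat1 and Neat1 were lower in the Tnrc6a fraction than in the lysate it came from. CPM gives no amount of RNA recovered, here or for the other members. Tnrc6a RNA itself stood at 78.1 ± 19.3 CPM in tagged input and 22950 ± 5649 CPM in tagged IP of experiment 1 (SD, n = 3). In experiment 1 Malat1 stood at 109, 87.9 and 87.6 CPM in the 3 tagged inputs and at 58.0, 59.8 and 63.3 CPM in the 3 tagged IPs. The log2 fold change of IP against input was -0.65 (SE 0.11, edgeR adjusted p 1.82e-05), with no overlap. Untagged cells went the other way, from 123, 107 and 122 CPM in input to 163, 201 and 203 CPM on the beads, a rise of 0.69 (SE 0.11, edgeR adjusted p 9.68e-05). Every untagged IP library exceeded every tagged one. In Trim71KO cells Malat1 was lower still on the beads, at 29.7, 40.0 and 37.1 CPM against 93.5, 87.8 and 93.0 CPM in input (log2 -1.36, SE 0.11, edgeR adjusted p 2.92e-10).

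In experiment 2 Malat1 was again lower in tagged IP (101, 101 and 109 CPM) than in tagged input (150, 141 and 138 CPM), by a log2 change of -0.46 (SE 0.08, edgeR adjusted p 5.43e-05). The same comparison gave -0.72 (SE 0.08, edgeR adjusted p 5.43e-08) in Trim71KO and -0.35 (SE 0.08, edgeR adjusted p 0.00167) in Ago2KO cells. Untagged cells gave -0.17 (SE 0.08), which missed the threshold (edgeR adjusted p 0.390). In Ago2KO the Malat1 change was -0.23 without Ago2KO IP replicate 1, a smaller but still called change (edgeR adjusted p 0.0240).

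Neat1, the paraspeckle scaffold, did not differ between beads and lysate of untagged cells in experiment 1 beyond its spread, with 67.7, 65.9 and 63.4 CPM in input and 63.0, 78.1 and 60.0 CPM in IP (log2 0.03, SE 0.11). Scaled by library size alone, this change turned to -0.37 and passed the threshold (edgeR adjusted p 0.00793). Tagged cells held 43.9, 47.1 and 46.9 CPM in input and 29.4, 32.3 and 24.2 CPM in IP, a change of -0.68 (SE 0.12, edgeR adjusted p 1.63e-05) with no overlap. Trim71KO cells gave -0.96 (SE 0.12, edgeR adjusted p 2.30e-07). In experiment 2 the change was -0.46 (SE 0.11, edgeR adjusted p 0.00105) in tagged cells, -0.47 (SE 0.11, edgeR adjusted p 0.00125) in Trim71KO and -0.37 (SE 0.10, edgeR adjusted p 0.00815) in Ago2KO. The Ago2KO call was lost without Ago2KO input replicate 3 (-0.28) or without Ago2KO IP replicate 1 (-0.27), and there IP and input libraries overlapped.

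The snoRNA hosts Gas5 and Snhg1 were higher on untagged beads and lower on tagged beads than in the matching input of experiment 1. Gas5 rose from 278, 281 and 303 CPM in untagged input to 463, 495 and 464 CPM in untagged IP (log2 0.72, SE 0.12, edgeR adjusted p 1.33e-04). In tagged cells it was lower on the beads, at 219, 195 and 171 CPM against 270, 381 and 299 CPM (log2 -0.70, SE 0.12, edgeR adjusted p 1.36e-05). No tagged IP library reached a tagged input library, and each untagged IP was above each untagged input. Under scaling by library size alone, where the median of all genes in untagged cells stood at -0.42 instead of -0.03, the rise was 0.33 for Gas5, 0.29 for Malat1 and 0.47 for Snhg1, each still called.

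Snhg1 was at 73.6, 74.2 and 84.3 CPM in untagged input and at 126, 149 and 147 CPM in untagged IP, a rise of 0.86 (SE 0.11, edgeR adjusted p 7.96e-06). Tagged cells had 88.6, 121 and 95.7 CPM in input and 92.8, 77.1 and 67.1 CPM in IP. These 2 groups overlapped, and the change of -0.37 (SE 0.11, edgeR adjusted p 0.00721) was lost without tagged input replicate 2 (-0.18) or tagged IP replicate 3 (-0.26). In Trim71KO cells Gas5 fell by 0.97 (SE 0.12, edgeR adjusted p 1.56e-07) and Snhg1 by 0.56 (SE 0.12, edgeR adjusted p 1.87e-04).

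In experiment 2 Gas5 stood at 347, 350 and 347 CPM in tagged input and at 267, 303 and 287 CPM in tagged IP (log2 -0.28, SE 0.07, edgeR adjusted p 0.00146). The same change was -0.48 (SE 0.07, edgeR adjusted p 1.16e-06) in Trim71KO and -0.29 (SE 0.07, edgeR adjusted p 0.00198) in Ago2KO, against 0.04 (SE 0.07) in untagged cells. Snhg1 passed in Trim71KO (-0.34, SE 0.11, edgeR adjusted p 0.00975), and that call was lost without Trim71KO input replicate 1 (-0.22). Its tagged and Ago2KO changes were -0.18 (SE 0.10) and -0.12 (SE 0.10) and missed the threshold, but passed under scaling by library size alone (-0.48 and -0.30).

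**Figure D2:**
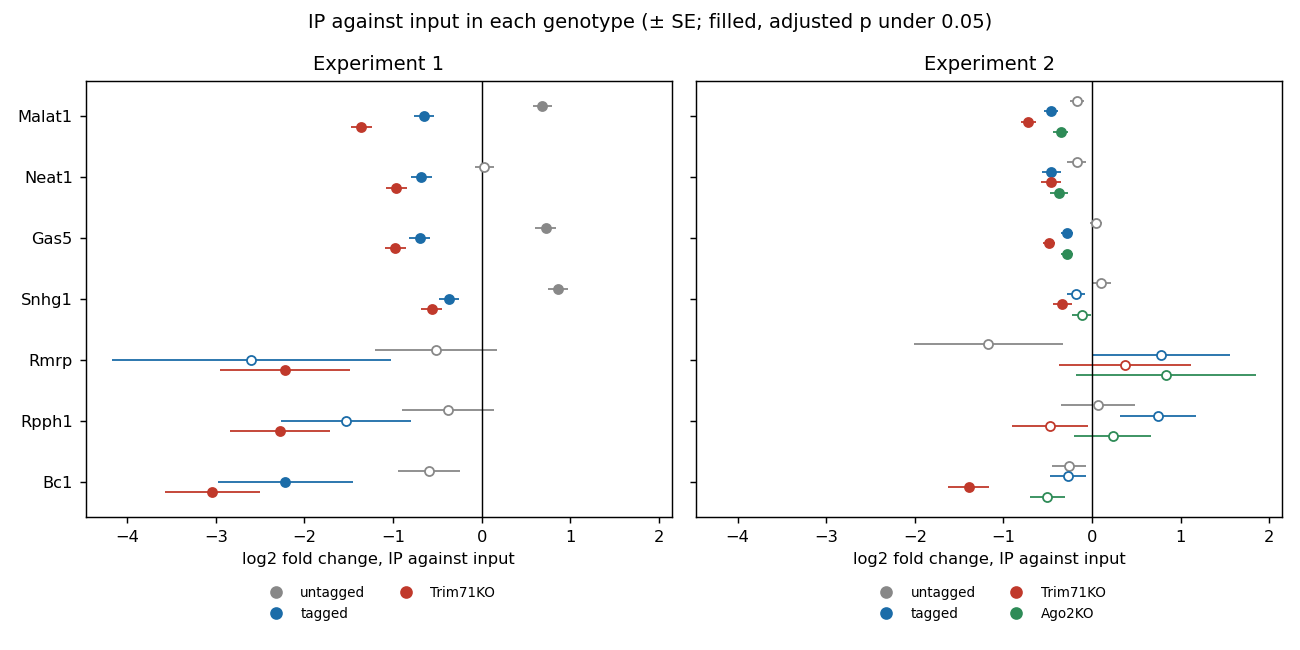
Log2 fold change of IP against input (x axis) for each member (y axis) by genotype in experiment 1 (left) and experiment 2 (right), with bars of 1 SE and filled points for an edgeR adjusted p under 0.05. Malat1, Gas5 and Snhg1 lie right of 0 in untagged cells of experiment 1 (0.69, 0.72 and 0.86) and left of 0 in the tagged lines of that experiment. The tagged Rmrp point of experiment 1 rests on IP libraries with 1, 0 and 0 counts and its position depends on the fit's prior.

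The small RNAs were scarce on tagged beads of experiment 1. Bc1 stood at 1.48, 4.70 and 0.376 CPM in tagged input and at 0.457, 0.461 and 0.465 CPM in tagged IP, against 14.7, 8.38 and 12.4 CPM on untagged beads. Its IP-to-input change was -2.22 (SE 0.76, edgeR adjusted p 0.0136) in tagged cells, although the groups overlapped, and was lost without tagged input replicate 2 (-0.91). In Trim71KO cells Bc1 was at 10.2, 4.85 and 9.30 CPM in input and 0.252, 0.779 and 1.87 CPM in IP, with no overlap (log2 -3.04, SE 0.54, edgeR adjusted p 2.79e-05). In experiment 2 Bc1 passed in Trim71KO alone, from 16.2, 21.4 and 10.6 CPM in input to 7.03, 4.19 and 7.02 CPM in IP (log2 -1.39, SE 0.23, edgeR adjusted p 1.29e-05). The tagged change there was -0.28 (SE 0.20) and the Ago2KO change -0.50 (SE 0.20, edgeR adjusted p 0.0558).

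Rpph1, the RNase P RNA, was at 0.677, 1.66 and 1.66 CPM in tagged input and 0.305, 0.307 and 0.774 CPM in tagged IP of experiment 1, a change that missed the threshold (log2 -1.53, SE 0.74, edgeR adjusted p 0.0702) but passed without tagged input replicate 1 (-1.82), under scaling by library size alone (-1.88) and with only both groups fitted (-1.51). In Trim71KO cells it was called lower on the beads (-2.27, SE 0.56, edgeR adjusted p 0.00117), and still called, at -1.33, once Trim71KO input replicate 1 was left out. Rmrp had 5, 4 and 1 counts in tagged input and 1, 0 and 0 counts in tagged IP, so no fold is given. In Trim71KO cells Rmrp had 37, 15 and 19 counts in input and 1, 5 and 4 counts in IP (log2 -2.22, SE 0.73, edgeR adjusted p 0.0108), a call lost without replicate 1 of either fraction (-1.48 and -1.78). The filter on low counts favoured this call as well, since Rmrp passed it largely through that input. Neither RNA passed in any genotype of experiment 2.

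All 7 members passed the filter on low counts in both experiments. In experiment 1 Rmrp passed largely through Trim71KO input (37, 15 and 19 counts), so the filter favoured its calls in comparisons that use that input. Members called higher on untagged beads of experiment 1 numbered 3 of 7 (Malat1, Gas5, Snhg1), where 7.21% of 18772 genes were. Lower on the beads were 5 of 7 in tagged cells of that experiment, where 33.7% of genes were, and 7 of 7 in Trim71KO, where 35.2% were. In experiment 2, 0 of 7 passed in untagged cells by edgeR, with 1 at an unadjusted p under 0.05 and 0 by DESeq2. Of 19778 genes, 0.728% passed there in either direction by edgeR and 1.39% by DESeq2. Lower there were 3 of 7 in tagged cells (15.4% of genes), 5 of 7 in Trim71KO (22.3%) and 3 of 7 in Ago2KO (8.46%). The median member change in tagged cells was -0.70 against -0.09 over all genes in experiment 1, and -0.28 against -0.04 in experiment 2. Scaling by library size alone lowered the all-gene median of these comparisons to between -0.09 and -0.45. Under it the tagged changes of Neat1, Malat1 and Snhg1 in experiment 1 became -1.04, -1.01 and -0.72. In experiment 2 those of Malat1, Neat1 and Gas5 became -0.75, -0.75 and -0.57.

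The tagged IP-to-input ratio was next set against the untagged one, which gives the background of the beads. This tag-specific difference and the differences between knockout and tagged cells share the tagged libraries. In experiment 1 the tag-specific difference was negative and called in all 4 long RNAs. It was -1.33 (SE 0.16, edgeR adjusted p 1.21e-07) for Malat1, -0.71 (SE 0.16, edgeR adjusted p 5.53e-04) for Neat1, -1.42 (SE 0.17, edgeR adjusted p 1.24e-07) for Gas5 and -1.23 (SE 0.16, edgeR adjusted p 7.57e-07) for Snhg1. None of the 3 small RNAs passed, with -1.15 (SE 0.92) for Rpph1 and -1.62 (SE 0.87, edgeR adjusted p 0.115) for Bc1. Bc1 passed without tagged input replicate 3 (-2.12, edgeR adjusted p 0.0175). The 4 of 7 called lower compare with 28.8% of genes.

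In experiment 2 Gas5 was the 1 member called lower by this measure (-0.33, SE 0.10, edgeR adjusted p 0.0114) where 8.77% of genes were. Its value was -0.53 under scaling by library size alone. Malat1 (-0.29, SE 0.12, edgeR adjusted p 0.0649), Neat1 (-0.29, SE 0.15) and Snhg1 (-0.29, SE 0.15) had negative values that missed the threshold. Malat1 passed without untagged IP replicate 2 (-0.33) or tagged IP replicate 3 (-0.32), and in 6 of 7 alternative settings of the fit. Bc1 was at -0.01 (SE 0.28). The difference between the experiments was itself tested in a fit of all 42 libraries, and 3 of 7 members had a more negative value in experiment 1, where 11.1% of 18620 genes did. These were Gas5 (-0.99, SE 0.19, edgeR adjusted p 2.15e-04), Malat1 (-0.94, SE 0.19, edgeR adjusted p 3.93e-04) and Snhg1 (-0.84, SE 0.23, edgeR adjusted p 0.00578), while Neat1 gave -0.32 (SE 0.22).

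**Figure D3:**
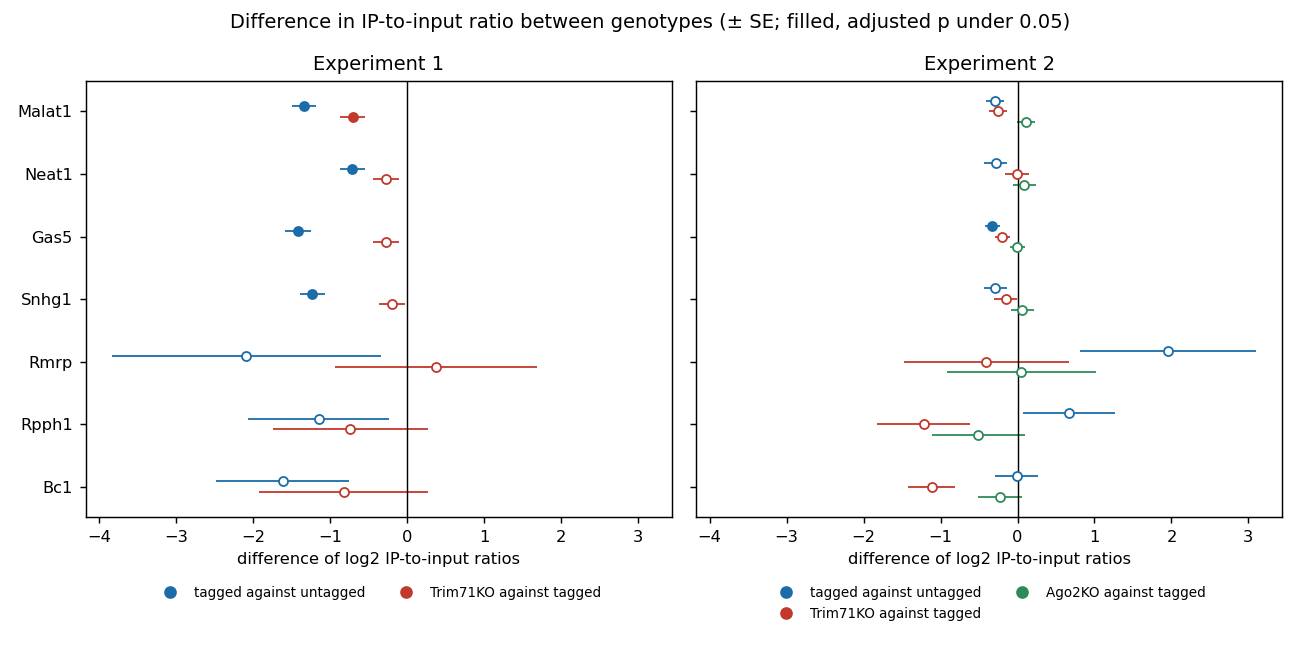
Difference in the log2 IP-to-input ratio between genotypes (x axis) for each member (y axis), in experiment 1 (left) and experiment 2 (right) on one scale, with bars of 1 SE and filled points for an edgeR adjusted p under 0.05. The 4 long RNAs lie between -1.42 and -0.71 for tagged against untagged in experiment 1 and between -0.33 and -0.29 in experiment 2. The Ago2KO points of these 4 lie between -0.00 and 0.11. The Rmrp points of experiment 1 rest on tagged IP libraries of 1, 0 and 0 counts and are no bound.

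In Trim71KO cells of experiment 1 the IP-to-input ratio of Malat1 was lower than in tagged cells. The Trim71KO ratio minus the tagged ratio was -0.71 (SE 0.16, edgeR adjusted p 0.00931), with Malat1 at 29.7 to 40.0 CPM on Trim71KO beads and 58.0 to 63.3 CPM on tagged beads, while the inputs overlapped. Malat1 was the 1 member of 7 called lower, where 3.47% of genes were, and its call was lost without tagged input replicate 3 (-0.57) or Trim71KO input replicate 3 (-0.62). Gas5 gave -0.27 (SE 0.17), Neat1 -0.28 (SE 0.17) and Snhg1 -0.20 (SE 0.16). In experiment 2, 0 of 7 members passed by edgeR, with 3 at an unadjusted p under 0.05 and 1 by DESeq2. Of all genes, 1.49% passed by edgeR and 2.77% by DESeq2. Malat1 was at -0.26 (SE 0.12, edgeR adjusted p 0.297). Bc1 was at -1.12 (SE 0.31, edgeR adjusted p 0.0683), and passed without Trim71KO input replicate 3 (-1.34) or Trim71KO IP replicate 1 (-1.26). The difference between the experiments was called for 0 of 7 by edgeR and 0 by DESeq2, with 1, Malat1 (-0.46, SE 0.20), at an unadjusted p under 0.05. Of all genes, 0.0967% passed by edgeR and 1.39% by DESeq2.

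In Ago2KO cells no member's ratio differed from the tagged ratio past the threshold. By edgeR 0 of 7 passed, 0 had an unadjusted p under 0.05 and 0 passed by DESeq2, while 4.16% of genes passed by edgeR and 4.97% by DESeq2. Malat1 stood at 90.2, 112 and 127 CPM on Ago2KO beads and at 101, 101 and 109 CPM on tagged beads, which overlap (0.11, SE 0.12). The value was -0.00 (SE 0.10) for Gas5, 0.09 (SE 0.15) for Neat1, 0.06 (SE 0.15) for Snhg1 and -0.23 (SE 0.28) for Bc1. Compared directly, the Trim71KO ratio of Malat1 was below the Ago2KO ratio by edgeR (-0.37, SE 0.12, adjusted p 0.0426), 1 of 7 members where 2.86% of genes were lower. That call was lost in 7 of 12 fits with 1 library left out, with values from -0.49 to -0.25 over the 12, and in a fit restricted to both knockouts (-0.33). The libraries whose omission ended it were Trim71KO input replicates 2 and 3, Ago2KO input replicates 1 and 2, Trim71KO IP replicate 2 and Ago2KO IP replicates 2 and 3. Bc1 was at -0.89 (SE 0.30, edgeR adjusted p 0.0575) in the same comparison and passed in 4 of these 12 fits, with values from -1.11 to -0.63.

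In input RNA of experiment 2, Neat1 was lower in Trim71KO and higher in Ago2KO than in tagged cells. It stood at 85.9, 98.2 and 95.7 CPM in tagged cells, at 42.4, 43.2 and 39.8 CPM in Trim71KO and at 129, 131 and 156 CPM in Ago2KO, with no overlap among the 3. The log2 change from tagged cells was -1.16 (SE 0.11, edgeR adjusted p 8.47e-09) in Trim71KO and 0.57 (SE 0.10, edgeR adjusted p 7.67e-04) in Ago2KO. In such bulk samples, fewer cells of a type and less RNA per cell cannot be told apart. Trim71KO against Ago2KO gave -1.73 (SE 0.11, edgeR adjusted p 6.00e-12). In experiment 1 Neat1 was lower in tagged (43.9 to 47.1 CPM) than in untagged cells (63.4 to 67.7 CPM), by -0.51 (SE 0.11, edgeR adjusted p 0.00485). From tagged to Trim71KO cells its change was -0.31 (SE 0.11, edgeR adjusted p 0.0393), a call lost in 4 of 6 fits with 1 library left out (-0.37 to -0.25), namely without tagged input or Trim71KO input replicate 2 or 3, and under scaling by library size alone (-0.26). The Trim71KO change differed between the experiments by 0.86 (SE 0.16, edgeR adjusted p 1.58e-04), a test chosen after the values were seen.

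**Figure D4:**
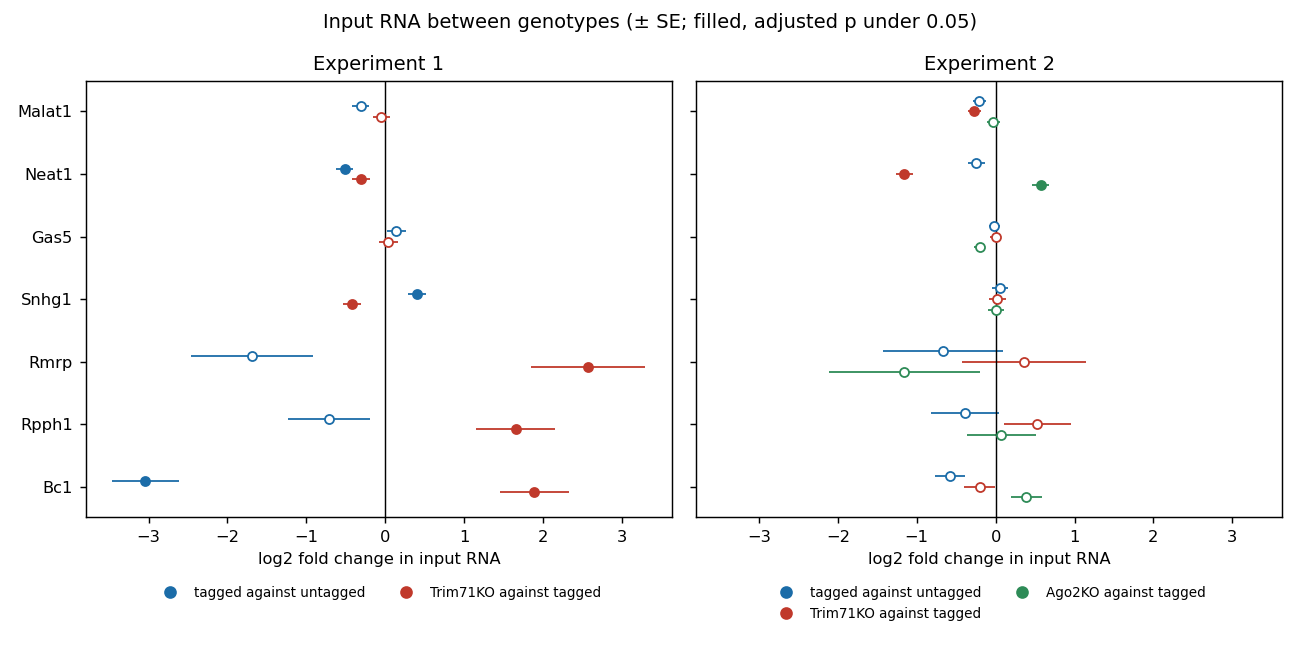
Log2 fold change of input RNA between genotypes (x axis) for each member (y axis), in experiment 1 (left) and experiment 2 (right) on one scale, with bars of 1 SE and filled points for an edgeR adjusted p under 0.05. Neat1 lies at -1.16 in Trim71KO and at 0.57 in Ago2KO cells of experiment 2, and Bc1 lies at -3.04 for tagged against untagged cells of experiment 1.

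Among the other long RNAs, input Malat1 was lower in Trim71KO (115, 121 and 120 CPM) than in tagged cells (150, 141 and 138 CPM) of experiment 2 by -0.27 (SE 0.08, edgeR adjusted p 0.0158), a call lost without replicate 1 of either group (-0.23 and -0.24), while experiment 1 gave -0.05 (SE 0.11). Between tagged and untagged input of experiment 1, Malat1 missed the threshold (-0.31, SE 0.11, edgeR adjusted p 0.0672) and passed without tagged input replicate 1 (-0.39). Snhg1 was higher in tagged than in untagged input of experiment 1 (0.40, SE 0.11, edgeR adjusted p 0.0277) and lower in Trim71KO than in tagged input (-0.42, SE 0.11, edgeR adjusted p 0.00605). Without tagged input replicate 2, at 121 CPM, they were 0.26 and -0.27 and missed the threshold. The first was lost as well without untagged input replicate 1 (0.39) or 2 (0.40), under scaling by library size alone (0.34) and with only both groups fitted (0.39). In experiment 2 these Snhg1 changes were 0.06 (SE 0.10) and 0.02 (SE 0.10). Gas5 was at 0.14 and 0.04 in the same comparisons of experiment 1 and at -0.02 and -0.00 in those of experiment 2, and did not pass. Its change from tagged to Ago2KO input missed the threshold (-0.20, SE 0.07, edgeR adjusted p 0.0735) but passed by DESeq2 (-0.21) and with only both groups fitted (-0.21). Between Trim71KO and Ago2KO, Malat1 (-0.24, SE 0.08, edgeR adjusted p 0.0296), Gas5 (0.20, SE 0.07, edgeR adjusted p 0.0272) and Bc1 (-0.59, SE 0.20, edgeR adjusted p 0.0241) passed beside Neat1. With 1 library left out, Malat1 ran from -0.27 to -0.18 and kept its call only without Ago2KO input replicate 2. Gas5 ran from 0.17 to 0.25 and kept it only without Trim71KO replicate 3 or Ago2KO replicate 1, and lost it under scaling by library size alone (0.17). Bc1 ran from -0.85 to -0.37 and kept it only without Trim71KO replicate 2 or Ago2KO replicate 3, and lost it by DESeq2 (-0.57).

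Bc1 was low in the tagged input libraries of experiment 1. It stood at 17.5, 23.0 and 13.3 CPM in untagged, 1.48, 4.70 and 0.376 CPM in tagged and 10.2, 4.85 and 9.30 CPM in Trim71KO input. The tagged level was lower than the untagged by a log2 change of -3.04 (SE 0.42, edgeR adjusted p 7.13e-05) and the Trim71KO level was above the tagged by 1.89 (SE 0.44, edgeR adjusted p 0.00196). Without tagged input replicate 2 the second became 3.17. In experiment 2 the same comparisons gave -0.58 (SE 0.19, edgeR adjusted p 0.158) and -0.20 (SE 0.20), and neither passed. The experiments differed by -2.48 (SE 0.47, edgeR adjusted p 0.00131) and by 2.09 (SE 0.49, edgeR adjusted p 0.00179) in these changes, tests that were likewise chosen after the values were seen, and by -3.76 and 3.37 without tagged input replicate 2 of experiment 1. Snhg1 differed by -0.44 (SE 0.16, edgeR adjusted p 0.0433) in the Trim71KO change, a call kept in 4 of 12 fits with 1 library left out (tagged replicates 1 and 3 of experiment 1, tagged replicate 1 and Trim71KO replicate 3 of experiment 2), with values from -0.58 to -0.30 over the 12, and lost under scaling by library size alone (-0.33).

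Rmrp and Rpph1 were higher in Trim71KO than in tagged input of experiment 1, with their highest counts in Trim71KO replicate 1. Rmrp had 37, 15 and 19 counts against 5, 4 and 1 (log2 2.57, SE 0.72, edgeR adjusted p 0.00820), and missed the threshold without Trim71KO input replicate 1 (1.92). As Rmrp passed the filter on low counts largely through this Trim71KO input, the filter favoured this call, which is no independent support for a rise. Rpph1 had 144, 56 and 51 counts against 11, 29 and 31 (log2 1.65, SE 0.50, edgeR adjusted p 0.0134). Its call was lost without that library (0.80) or without tagged input replicate 1 (1.33). In experiment 2 these changes were 0.36 (SE 0.79) and 0.53 (SE 0.42).

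Input members called in either direction for tagged against untagged cells numbered 3 of 7 in experiment 1, where 10.6% of genes passed. In experiment 2 the count was 0 of 7 by edgeR, with 3 at an unadjusted p under 0.05 and 0 by DESeq2, where 1.39% of genes passed by edgeR and 1.76% by DESeq2. For Trim71KO against tagged cells 5 of 7 passed in experiment 1, Rmrp with its limit from the filter among them, where 34.0% of genes did. That count was 3 without tagged input replicate 2 or Trim71KO input replicate 1, and 4 without any other library of these groups. In the same comparison 2 of 7 (Malat1, Neat1) were lower in experiment 2, where 13.7% of genes were. In Ago2KO against tagged input 1 of 7, Neat1, was higher, where 4.38% of genes were. Between the knockouts 4 of 7 passed, beside 28.4% of genes. The difference between experiments was called for 1 of 7 in the tagged change, where 1.04% of genes were lower, and for 3 of 7 in the Trim71KO change, where 22.8% passed.

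**Figure D5:**
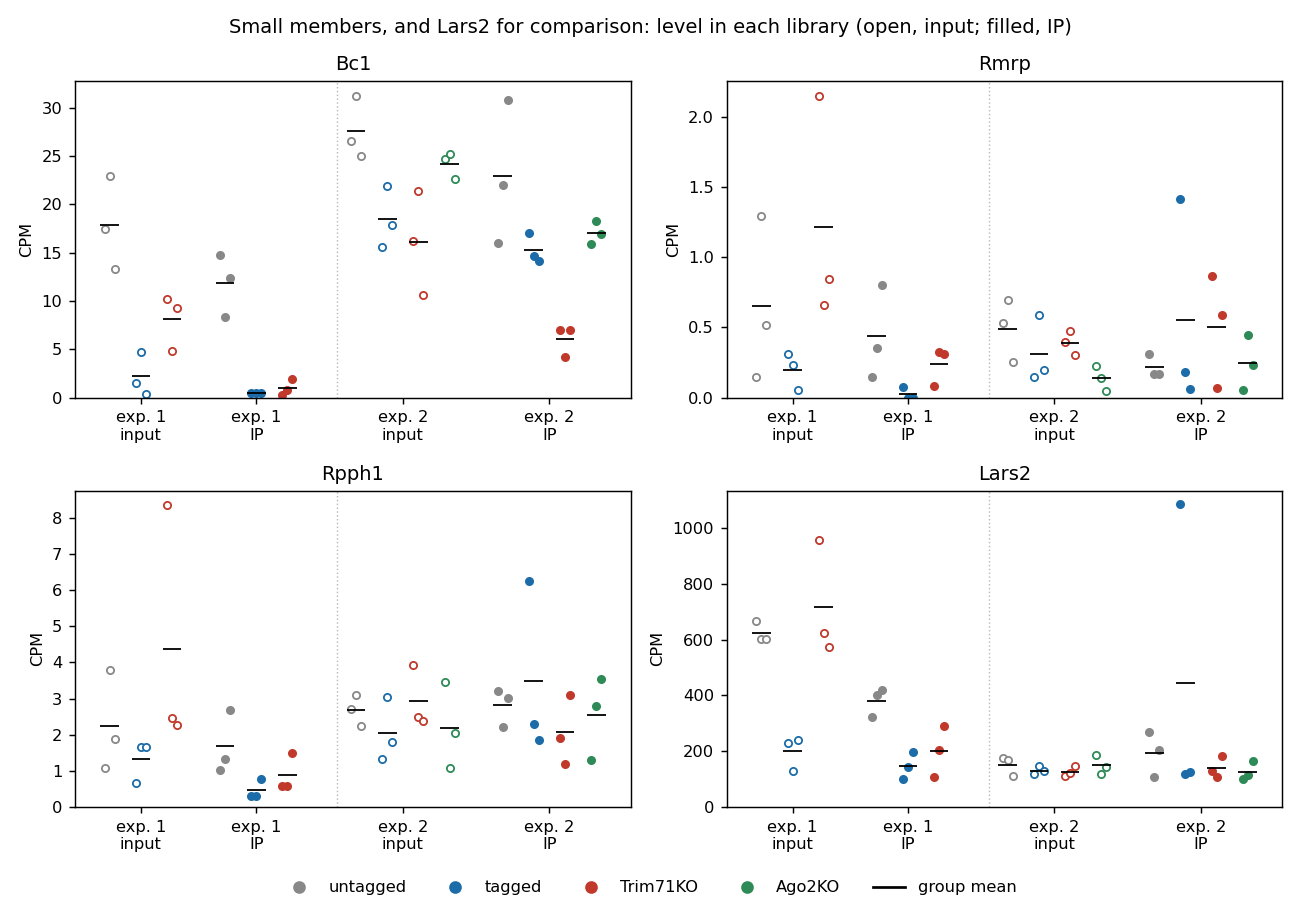
Level of Bc1, Rmrp and Rpph1, and of Lars2 for comparison, in CPM (y axes, linear, from 0, one per gene) in each library by experiment and fraction (x axis), with open points for input, filled points for IP and bars for group means (n = 3). Bc1 and Lars2 are low in tagged input of experiment 1 beside the other inputs there, and 1 tagged IP library of experiment 2 is the highest of that experiment in Rmrp, Rpph1 and Lars2.

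The genes most like the small RNAs across libraries were shared. By the smaller of its Pearson correlations over the 18 and the 24 libraries, with 12446 genes compared, Rmrp was most like Mir6236 (0.66), ENSMUSG00000076258 (0.57) and Lars2 (0.55). Rpph1 was most like the same genes, at 0.71, 0.73 and 0.69. Lars2 encodes the mitochondrial leucyl-tRNA synthetase. In input of experiment 1 it stood at 603 to 668 CPM in untagged, 130 to 239 CPM in tagged and 573 to 956 CPM in Trim71KO cells, and Mir6236 stood at 30.2 to 35.7, 5.45 to 9.99 and 28.9 to 37.2 CPM. Both were low in the tagged inputs in which Bc1 was low, and the highest Lars2 value fell in Trim71KO input replicate 1, where Rmrp and Rpph1 peaked. Among these tagged inputs the order differed, as replicate 3 had the lowest Bc1 (0.376 CPM) and the highest Lars2 (239 CPM) and Mir6236 (9.99 CPM). Replicate 2 had the highest Bc1 (4.70 CPM) and the lowest Lars2 (130 CPM) and Mir6236 (5.45 CPM). In tagged IP of experiment 2, replicate 1 had 1085 CPM of Lars2 against 119 and 127 CPM, with 21 counts of Rmrp against 3 and 1 and 93 counts of Rpph1 against 38 and 32. The part of these genes in the changes of the small members was not tested.

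For the other members the same measure was taken over the same libraries, which share genotypes, fractions and depth. Malat1 was most like Snrnp48 (0.95), which encodes a protein of the minor spliceosome, ENSMUSG00000102349 (0.94) and Cep250 (0.92), which encodes a centrosome protein. Neat1 was most like Tex14 (0.96), Grb10 (0.95) and Gnas (0.94), of which Grb10 and Gnas are imprinted genes. Gas5 was most like 2 further snoRNA hosts, Snhg6 (0.93) and Snhg12 (0.92), and Luc7l3 (0.91). Snhg1 was most like Taf1d (0.85), itself a host of snoRNAs, Mrpl36 (0.80) and Ribc1 (0.78). Bc1 was close to Psph (0.84) and ENSMUSG00000057262 (0.84).

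Most further snoRNA hosts were lower on tagged beads than in input. Of 19 listed and 16 measured, 13 were lower (33.7% of all genes were) and 1 higher in tagged IP than in input of experiment 1, with a median change of -0.89 against -0.09 over all genes. Snhg4 had -1.50 (SE 0.14, edgeR adjusted p 1.52e-09), Snhg18 had -1.55 (SE 0.53, edgeR adjusted p 0.0129), and the 1 that rose was Snhg15 (0.42, SE 0.14, edgeR adjusted p 0.0108). In experiment 2, 11 of 16 were lower (15.4% of genes were), with a median of -0.36 against -0.04, led by Snhg4 (-0.66, SE 0.11, edgeR adjusted p 1.73e-05) and Dancr (-0.56, SE 0.14, edgeR adjusted p 0.00272). Against the untagged ratio 12 were lower and 1 higher in experiment 1, where 28.8% of genes were lower, and 8 were lower in experiment 2, where 8.77% were. For Trim71 dependence in experiment 1 the count was 1 of 16, Snhg11 (-0.67, SE 0.19, edgeR adjusted p 0.0420), near the 3.47% of all genes.

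Of 13 other nuclear long non-coding RNAs listed, 10 were measured in experiment 1 and 11 in experiment 2. In tagged cells 4 of 10 were lower and 1 higher on the beads than in input (median -0.15), near the 33.7% of all genes that were lower, and 5 of 11 were lower and 1 higher in experiment 2 (median -0.38), where 15.4% were lower. In Trim71KO cells 8 of 10 were lower and 1 higher in experiment 1 (median -1.34), where 35.2% of genes were lower, and 7 of 11 were lower in experiment 2 (median -0.31), where 22.3% were. In tagged cells Meg3, an imprinted RNA, had -1.25 (SE 0.11, edgeR adjusted p 1.17e-09) and -0.64 (SE 0.08, edgeR adjusted p 1.38e-07) in the 2 experiments. Miat had tagged changes of -1.60 (SE 0.31, edgeR adjusted p 6.52e-05) and -0.79 (SE 0.16, edgeR adjusted p 2.14e-04). Tug1 was the one that rose in tagged cells, by 0.78 (SE 0.10, edgeR adjusted p 5.35e-07) and 0.18 (SE 0.07, edgeR adjusted p 0.0320).

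Of 3 cytoplasmic long non-coding RNAs listed, the 2 measured were higher on tagged beads than in input, as were 6088 of 18772 genes in experiment 1 and 4579 of 19778 in experiment 2. Norad, an RNA known to bind Pumilio proteins, had a tagged change of 2.47 (SE 0.09) in the first experiment and 1.65 (SE 0.12) in the second, with edgeR adjusted p-values of 6.83e-17 and 1.37e-11. Oip5os1 rose by 2.64 (SE 0.11, edgeR adjusted p 2.49e-16) and 1.44 (SE 0.10, edgeR adjusted p 1.06e-12). Both also passed against the untagged ratio, with medians of 2.73 and 1.71. For Trim71 dependence in experiment 1 both were lower, Norad at -0.47 (SE 0.13, edgeR adjusted p 0.0405) and Oip5os1 at -0.72 (SE 0.15, edgeR adjusted p 0.00347), and in experiment 2 their median was 0.01.

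Of 44 other small structural RNAs listed, snoRNAs among them, 37 were tested in experiment 1 and 40 in experiment 2. In experiment 1, 14 of 37 were lower on tagged beads than in input (median -0.92), a share near the 33.7% of all genes, with Snora31 at -2.45 (SE 0.49, edgeR adjusted p 1.02e-04). In Trim71KO cells 21 of 37 were lower (median -1.44), where 35.2% of genes were, and on untagged beads 7 of 37 were higher (median 0.54), where 7.21% were. In experiment 2, 5 of 40 were lower in tagged cells (median -0.53), with Snora17 at -1.17 (SE 0.35, edgeR adjusted p 0.00915), and 10 of 40 in Trim71KO (median -0.48). The first share is below the 15.4% of all genes, and the second is near their 22.3%.

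The mRNAs of proteins that bind these non-coding RNAs were counted as well. Of 5 paraspeckle protein mRNAs all 5 were lower in tagged IP than in input of experiment 1, where 33.7% of genes were, and 2 in experiment 2, where 15.4% were. In Trim71KO against tagged input, 3 of the 5 were higher in experiment 2, with Pspc1 at 1.04 (SE 0.08, edgeR adjusted p 1.43e-10), where 2671 of 19778 genes were higher. In experiment 1 the same comparison gave 1 higher and 2 lower of the 5, beside 3102 genes higher and 3275 lower of 18772. Of 10 mRNAs for RNase P and RNase MRP proteins, 6 were lower and 1 higher on tagged beads than in input of experiment 1, and 1 lower and 2 higher in experiment 2, a share of lower mRNAs below that of all genes there. Of 6 telomerase protein mRNAs, 5 and 2 were lower in the same comparisons. Of the mRNAs of 4 proteins of the 7SK particle, 1 was higher and 2 lower against the untagged ratio of experiment 1 (median -0.26). Over all genes there, 5276 were higher and 5412 lower of 18772. In experiment 2, 1 of the 4 was higher (median -0.04), beside 3745 of 19778 genes. The lower ones were Larp7 (-0.70, SE 0.18, edgeR adjusted p 0.00164) and Hexim1 (-0.52, SE 0.11, edgeR adjusted p 4.20e-04). The higher one, Mepce, the capping enzyme of the particle, had tag-specific values of 3.38 (SE 0.18) and 2.36 (SE 0.22), with edgeR adjusted p-values of 1.30e-13 and 1.59e-09.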

How the data were processed

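Raw read counts per gene were used as deposited by the authors, in 1 table per experiment, with RPKM beside them that served only for levels between genes. Per the submitters' processing notes, bcl2fastq 2.20 and STAR 2.7.3a were used with the builds GRCm38 and mm10. The counting tool and annotation are not given in the sources used here, and neither is the treatment of strand, overlapping genes or copies, so counts of genes with such neighbours are uncertain. Rmrp, Rpph1 and Bc1 are short, and how far the kit recovers RNAs of their length is not given.

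Libraries were grouped by their labels. Counts were tested with edgeR 4.0.16 (R 4.3.3) by the quasi-likelihood F test with TMM normalization and filterByExpr, all groups of an experiment in 1 fit, with 18772 and 19778 genes tested. Between experiments, 42 libraries entered 1 fit of 18620 shared genes. Calls were made at 0.05 after Benjamini-Hochberg adjustment across the genes tested. SE is the log2 change over the square root of F, and CPM uses TMM-adjusted sizes. Replicate error is the spread of 3 libraries, and a group with at most 3 counts in each library gets no fold. Simulated Trim71-dependent changes of 1 and 2 on the log2 scale were placed on genes with higher mean counts, so RNAs as scarce as Rmrp are not covered. Of these changes, 86% and 99% were recovered in experiment 1 and 88% and 100% in experiment 2, with 0 of the wrong sign. Of all calls in the simulations, 4.15% in experiment 1 and 7.39% in experiment 2 were false.

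Alternatives were RLE factors, library size alone, no filter, a replicate block, only the groups compared, DESeq2 1.42.0, leaving out each library, and CPM per kilobase for RPKM. The members, related lists and tests were chosen with earlier results of these data known. Genes named from a list are up to 2 each way per comparison with the largest called change, and the likeness rule takes 3 genes per member with a mean log2 CPM of at least 2, some of which are not reported here.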

Additional observations from a re-analysis of the deposited data

Results flagged for a closer look

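Differences between the knockouts and between the experiments that passed edgeR's test are collected here with their log2 values and no explanation. The IP-to-input ratio of Malat1 was lower in Trim71KO than in Ago2KO by -0.37. In input RNA of the same lines the differences were -1.73 for Neat1, -0.24 for Malat1, -0.59 for Bc1 and 0.20 for Gas5. Tag-specific ratios were more negative in experiment 1 than in experiment 2 by -0.99 for Gas5, -0.94 for Malat1 and -0.84 for Snhg1. The tagged input level of Bc1 relative to untagged differed between the experiments by -2.48. The Trim71KO input level relative to tagged differed by 0.86 for Neat1, -0.44 for Snhg1 and 2.09 for Bc1. Several of these calls ended in most fits with 1 library left out. They were the Malat1 ratio between the knockouts, the Malat1, Bc1 and Gas5 inputs between the knockouts, and Snhg1 in Trim71KO input.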

How the results depend on the processing

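Of 161 member results, 55 were called, and 48 of these kept the call in each alternative setting that could be fitted. Leaving out 1 library ended the call in 17, and 38 kept it throughout. Of the 106 others, 16 passed in at least 1 setting. Percentages beside the counts that follow are the shares of all genes called in either direction under the same setting. Scaling by library size alone raised the members called from 3 to 5 for IP against input in untagged cells of experiment 1 (54.3%). In experiment 2 it raised them from 3 to 5 in tagged (60.1%) and from 3 to 5 in Ago2KO cells (43.8%). For the tag-specific ratio of experiment 2 they rose from 1 to 4 (39.6%), and for Trim71KO against Ago2KO ratios from 1 to 2 (10.7%). This scaling turned Neat1 in untagged cells of experiment 1 from 0.03 to -0.37, so the 5 called there hold both directions. For that tag-specific ratio the count was 2 with RLE factors (29.3%), 2 with DESeq2 (29.2%) and 3 with only the groups compared (28.4%). DESeq2 gave 1 for Trim71 dependence in experiment 2 instead of 0 (2.77%) and 2 for Ago2KO against tagged input instead of 1 (7.78%). With only the groups compared, the latter was 3 (13.3%) and tagged against untagged input of experiment 2 gave 2 instead of 0 (2.68%). The causes were not tested.

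Same-numbered libraries did not deviate together (in no pair of groups were all 3 correlations over 0.1), so the numbers were not used as pairs. A replicate block within fraction gave 3 members for the tag-specific ratio of experiment 2 (29.6% of all genes) and 1 for Trim71 dependence there (2.38%). It gave 2 for Trim71KO against Ago2KO ratios (13.8%) and 2 for Ago2KO against tagged input (8.45%). A replicate block by culture gave 4 for that tag-specific ratio (29.8%). Each replicate block also called Snhg1 in tagged IP of experiment 2 and Rpph1 in that of experiment 1. Leaving out 1 library gave 3 to 6 members for tagged IP against input, 0 to 1 for Trim71 dependence and 3 to 4 (instead of 5) for Trim71KO against tagged input in experiment 1. In experiment 2 it gave 1 to 2 for the tag-specific ratio, 0 to 1 for Trim71 dependence, 1 to 2 for Trim71KO against tagged input, 0 to 2 for Trim71KO against Ago2KO ratios and 1 to 2 for their inputs. The shares of all genes called in these leave-out fits are not reported here. All 98 levels per length moved by less than 1 SD with CPM per kilobase.

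Library size alone also moved the share of calls that were higher over all genes. In experiment 1 it went from 59.6% to 4.88% for IP against input in untagged, from 49.0% to 33.5% in tagged and from 46.0% to 33.7% in Trim71KO cells. In experiment 2 it went from 61.8% to 19.2% in untagged, 60.0% to 25.7% in tagged, 54.7% to 32.6% in Trim71KO, 70.0% to 32.0% in Ago2KO cells and 68.4% to 36.5% for the tag-specific ratio. It rose from 7.25% to 24.6% and from 50.5% to 75.7% for Trim71 dependence in experiments 1 and 2, from 9.25% to 26.1% for Ago2 dependence, and from 60.9% to 78.6% and 46.4% to 68.8% for the differences between experiments in the tag-specific ratio and in Trim71KO input. It fell from 53.9% to 35.3% and 49.6% to 34.6% for tagged input of experiment 1 and Trim71KO input of experiment 2, from 63.0% to 51.1% for Ago2KO input and from 64.2% to 44.1% for the difference in tagged input. RLE factors moved this share from 70.0% to 59.2% in Ago2KO IP and from 50.5% to 38.6% for Trim71 dependence in experiment 2. DESeq2 moved it from 70.0% to 59.1% in Ago2KO IP and from 61.8% to 48.0% in untagged IP of experiment 2. For Trim71 dependence in experiment 1 DESeq2 gave 23.4% instead of 7.25%. For the difference between experiments in Trim71 dependence, 0.0% became 15.8% with RLE factors and 56.0% with DESeq2. Depth limits Rmrp and Rpph1 most, at 0 to 37 and 4 to 144 counts.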
